A study of Caenorhabditis elegans with 2 samples.

Results

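The cytosolic ribosomal protein genes of the nematode Caenorhabditis elegans were examined for peaks of the DNA-binding protein PEB-1 at their promoters. All protein-coding genes of the Ensembl annotation of WBcel235 whose symbols begin with rpl-, rps- or rla- were taken, which gave 81 of 19973 genes. By symbol alone these were 47 genes of the large ribosomal subunit, 31 genes of the small subunit and 3 genes of the stalk. So rpl-24.2, named rsl-24D1 in RefSeq, is counted with the large subunit. The 81 genes were set beside the 19892 other protein-coding genes. Peaks came from ChIP-seq, which sequences the DNA recovered with a protein from chromatin. There was 1 group of 2 biological replicates, whole second-stage (L2) larvae of mixed sex, and no group without the tag was analysed here. The strain, OP86, carries the unc-119(ed3) mutation on chromosome III and the integrated transgene wgIs86, an insertion meant to target peb-1 that gives an eGFP fusion of PEB-1. How much of the genome wgIs86 holds, which promoter drives it and whether untagged PEB-1 remained are not stated in the labels. Since whole larvae were used, tissues cannot be told apart.

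For each gene the best peak was the highest-ranked one whose summit fell in the promoter window, which runs from 1000 bp before to 200 bp after each annotated transcription start site (TSS). Ranks follow the authors' peak height, with rank 1 the highest, in a pooled list of both replicates and in a list for each replicate. Each list holds 30000 peaks and so runs far into background. The authors' thresholded list has 160 peaks, which are the 160 highest of the pooled list. Heights in the pooled list were 202 at the top, 35.4 at rank 160, 22.5 at rank 1000 and 9.9 at the end, on the authors' scale. They are compared only within a list, and the read depth behind them is unknown.

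The cytosolic ribosome is built from a large and a small subunit, both made of ribosomal RNA and many small proteins, usually with a single gene for each protein. These genes are among the most strongly transcribed in growing larvae, and their products are made in step with one another. In C. elegans many lie in operons or close to a neighbouring gene, and many carry small nucleolar RNA (snoRNA) genes in their introns. PEB-1 has a FLYWCH zinc finger and was first studied at an enhancer of the pharyngeal muscle myosin gene myo-2.

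The DNA under 3 intergenic summits is shown: those of rpl-11.2 and rpl-35 because their peaks are among the highest at ribosomal protein genes, and that of rpl-22 because it shares a stretch with rpl-11.2. Each line is 101 bases centred on the pooled summit, read from the RefSeq genome of WBcel235 on the strand of the gene. The rpl-11.2 window is X:2242945-2243045 on the minus strand, the rpl-35 window III:7854655-7854755 on the plus strand and the rpl-22 window II:5055322-5055422 on the plus strand. Capitals mark matches on either strand to the motif GAGAGA, the motif TGCCA or the motif TGCCG.
rpl-11.2: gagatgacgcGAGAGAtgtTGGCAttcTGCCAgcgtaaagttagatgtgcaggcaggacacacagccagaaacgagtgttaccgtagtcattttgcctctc
rpl-35: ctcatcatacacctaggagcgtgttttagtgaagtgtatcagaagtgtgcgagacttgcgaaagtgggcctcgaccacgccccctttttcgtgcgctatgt
rpl-22: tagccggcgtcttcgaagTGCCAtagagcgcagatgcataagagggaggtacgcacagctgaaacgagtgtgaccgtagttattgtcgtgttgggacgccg
The rpl-11.2 stretch holds GAGAGA and a pair of TGCCA matches in its upstream part, the rpl-22 stretch holds 1 TGCCA, and the rpl-35 stretch holds none of the 3 motifs.

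Among the ribosomal protein genes, 3 had a peak within the size of the thresholded list, rank 160, and these were rpl-11.2, rps-18 and rpl-35. That is 3.70% of 81 genes (exact 95% interval 0.77 to 10.4%), against 77 of the other protein-coding genes, 0.387%. Intervals are exact binomial (Clopper-Pearson) ones over genes and cover counting error only. With 1 group of samples no test across samples was possible, and the counts are a description.

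rpl-11.2, at X:2241738-2242618 on the minus strand, encodes a protein of the large subunit which in mammals joins the 5S ribonucleoprotein particle. Its peak, X:2242817-2243172, was rank 18 with a height of 73.7 in the pooled list. It was rank 17 with a height of 57.4 in replicate 1, and rank 107 with a height of 16 in replicate 2. This was the best rank of any ribosomal protein gene in the pooled list and in replicate 1, and it was within the first 160 in every list. The summit lay in intergenic DNA 377 bp upstream of the TSS, and 120 bp upstream of the start of the non-coding RNA genes AH9.7 and linc-78. The second gene for the same protein, rpl-11.1 on chromosome V, had no pooled peak in its window, rank 22708 in replicate 1 and rank 23296 in replicate 2.

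The rpl-11.2 peak stands 24 kb beyond the end of peb-1, the gene carried by the transgene, with 4 other protein-coding genes between them. Inside peb-1 there were 12 pooled peaks, 5 of them within rank 160, with a greatest height of 188. From 1 to 20000 bp beyond the end of peb-1 on the rpl-11.2 side there were 13 peaks, 1 of them within rank 160. Past 20000 and up to 40000 bp there were 7 peaks on that side, and the rpl-11.2 peak was the 1 within rank 160. At the same distance on the other side there were 6 peaks with a greatest height of 15.7. Extra copies of this DNA in the transgene and binding of PEB-1 cannot be told apart here. Without rpl-11.2, 2 of 80 ribosomal protein genes (2.5%) were within rank 160.

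**Figure D1:**
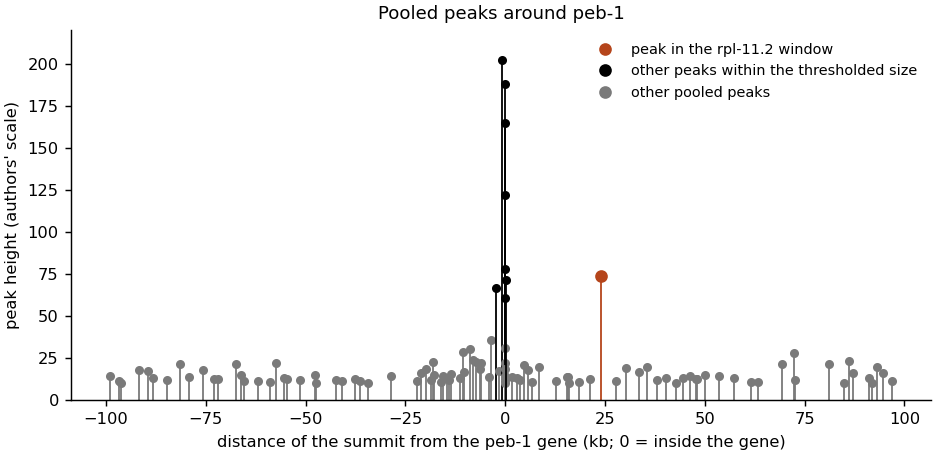
Height of each pooled peak (vertical axis, authors' scale) against the distance of its summit from the peb-1 gene in kb (horizontal axis, 0 inside the gene); the rpl-11.2 peak is orange, other peaks within rank 160 are black and the rest grey. The highest peaks, up to 202, lie in or beside peb-1, and the rpl-11.2 peak of 73.7 stands alone at 24 kb.

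rps-18, at IV:14825679-14826477 on the plus strand, encodes a protein of the head of the small subunit. Its peak, IV:14824750-14825105, was rank 57 with a height of 47.8 in the pooled list. It was rank 383 with a height of 19.8 in replicate 1 and rank 74 with a height of 17.1 in replicate 2, the best of all ribosomal protein genes in replicate 2. Of the 9 genes within pooled rank 1000, rps-18 alone ranked higher in replicate 2 than in replicate 1. The summit lay 751 bp upstream of rps-18, in the 5′ UTR of sec-61.A, a gene of the protein channel of the endoplasmic reticulum. A second pooled peak, 11 bp upstream of the rps-18 TSS, was only rank 17037. The strong peak therefore counts for rps-18 only by the width of the window.

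rpl-35, at III:7855134-7855646 on the plus strand, encodes a protein near the mouth of the exit tunnel of the large subunit. Its peak, III:7854527-7854882, was rank 75 with a height of 44.3 in the pooled list and rank 64 with a height of 35.7 in replicate 1. In replicate 2 the overlapping peak was rank 13127 with a height of 7.24, near that list's median of 6.92. The summit lay in intergenic DNA 429 bp upstream of rpl-35, and no other annotated gene had it in its window. The rpl-35 peak is thus the one of the 3 that no neighbour shares, and it rests on replicate 1.

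Taken to rank 1000, 9 of 81 ribosomal protein genes had a pooled peak (interval of the share 5.21 to 20%), against 370 of the other protein-coding genes, 1.86%. Besides the 3 above these were rpl-1, rps-26, rpl-20, rpl-23, rpl-22 and rps-12. All 6 ranked within the first 1000 of replicate 1, and none did so in replicate 2.

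rpl-1, named rpl-10a in RefSeq, encodes the protein of the mobile L1 stalk of the large subunit, and its peak was the next after the thresholded size. It was rank 168 with a height of 34.9 in the pooled list, rank 216 in replicate 1 and rank 8679 in replicate 2. Its summit, 246 bp upstream, fell within an exon of Y71F9AL.19, a gene for a non-coding RNA. rpl-20, named rpl-18A in RefSeq and also of the large subunit, was rank 465 with a height of 26.6 in the pooled list, rank 394 in replicate 1 and rank 4545 in replicate 2. Its pooled summit lay 231 bp from its TSS and equally far from that of Y17G9B.5, a divergent neighbour. rpl-23, whose protein faces the small subunit, was rank 686 in the pooled list and rank 655 in replicate 1, with no peak in replicate 2. Its summit was 487 bp upstream and in the window of no other gene. rpl-22, whose protein sits on the outer surface of the large subunit, was rank 774 in the pooled list and rank 444 in replicate 1, again with no peak in replicate 2. Its summit was 244 bp upstream but 193 bp from the TSS of ify-1, the securin gene.

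The other small subunit genes within rank 1000 were rps-26, whose protein lies where mRNA leaves the subunit, and rps-12. The rps-26 peak was rank 340 with a height of 28.6 in the pooled list, rank 588 in replicate 1 and rank 4352 in replicate 2. Its summit was 381 bp upstream of rps-26, but 76 bp upstream of tmem-107 and 137 bp upstream of the snoRNA gene F39B2.14. The rps-12 peak was rank 958 with a height of 22.7 in the pooled list, rank 851 in replicate 1 and rank 26069 in replicate 2. Its summit was 168 bp upstream of rps-12 and 125 bp upstream of ska-3, a gene of the kinetochore complex. When each peak was given to the nearest protein-coding TSS, rps-18, rps-26, rpl-22 and rps-12 lost theirs. Then 5 ribosomal protein genes (6.17%) were within rank 1000, against 1.53% of the other protein-coding genes.

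Just past rank 1000, rpl-39 and rps-30, a divergent pair of the large and small subunits, shared 1 peak of rank 1082. It was rank 5831 in replicate 1 and rank 2127 in replicate 2. Next came rpl-15 at rank 1280, rpl-3 at rank 1312 and rps-28 at rank 1351, named here after their values were seen. In replicate 1 these were rank 448, rank 608 and rank 460, and in replicate 2 none of them had a peak. Some genes, also named after their values were seen, went the other way. rpl-33, of the large subunit, was rank 359 in replicate 2 with no peak in replicate 1, and its summit lay in a coding exon of farl-11. rps-29, of the small subunit, was rank 448 in replicate 2, 69 bp downstream of its TSS, with no peak in the other lists.

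**Figure D2:**
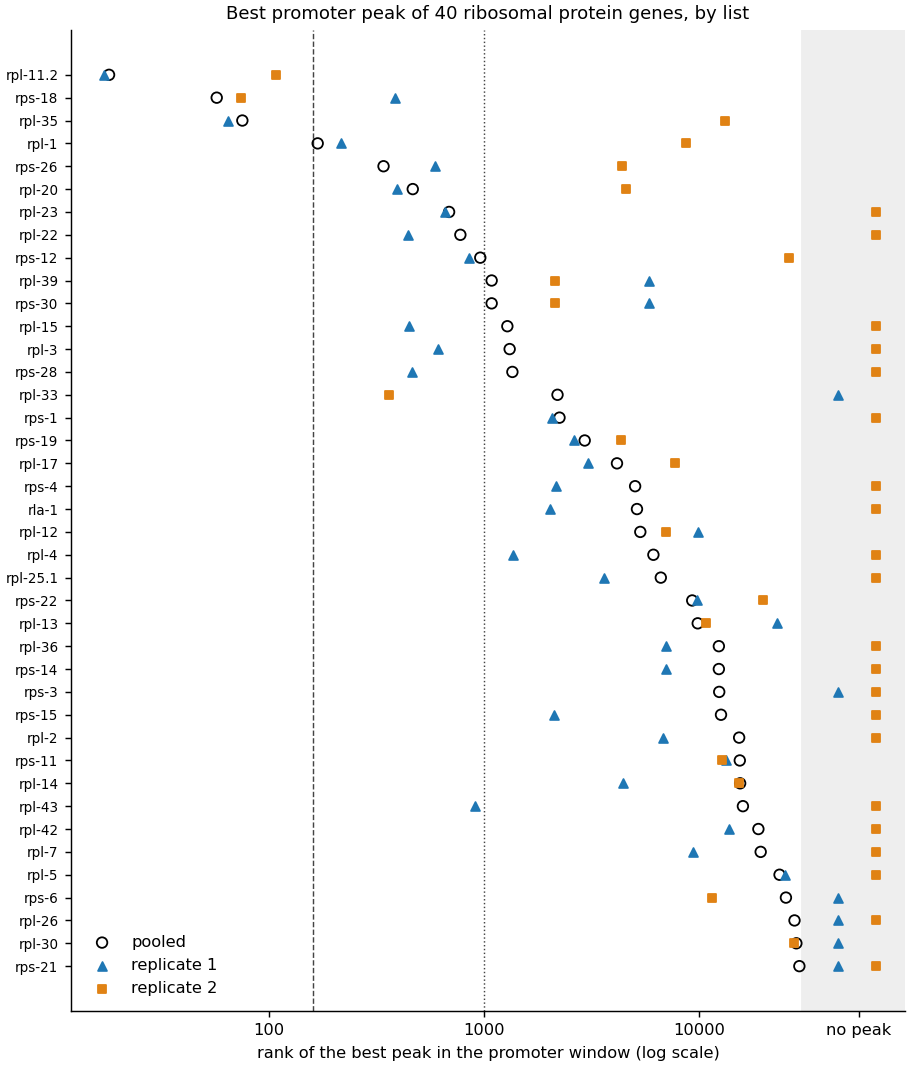
Rank of the best promoter peak (horizontal axis, log scale) of the 40 ribosomal protein genes with a pooled peak, in the pooled list (open circles), replicate 1 (triangles) and replicate 2 (squares); the dashed line is rank 160, the dotted line rank 1000, and the grey band marks genes without a peak in that list. For the 9 genes left of the dotted line the triangles lie close to the circles, rps-18 being the farthest apart, while 5 of their squares lie at rank 4352 or beyond and 2 in the grey band.

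At all cutoffs run, the pooled share of ribosomal protein genes stood above that of the other protein-coding genes, and the ratio of the shares was smaller at wide cutoffs. Within rank 5000 there were 18 of 81 (22.2%, interval 13.7 to 32.8%), against 7.97%. With a peak at any rank there were 40 (49.4%, interval 38.1 to 60.7%), against 37.5%. The ratio was 9.57 at rank 160, 5.97 at rank 1000, 2.79 at rank 5000 and 1.32 over the whole list. The median best rank of the 40 genes with a peak was 5221, against 13139 for the 7452 other genes with one, and their median height was 16.6 against 13.3. The exact order-statistic interval of the ribosomal median ran from rank 1351 to rank 12321. The remaining 41 genes, including rla-0 and rla-2, had no pooled peak in their window.

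The replicates differed. In replicate 1, 2 genes (2.47%) were within rank 160, 13 (16%, interval 8.83 to 25.9%) within rank 1000 and 49 (60.5%, interval 49 to 71.2%) had any peak. The other protein-coding genes had 0.402%, 2.12% and 38.4% at these cutoffs. In replicate 2, 2 genes (2.47%) were within rank 160, 4 (4.94%, interval 1.36 to 12.2%) within rank 1000 and 25 (30.9%, interval 21.1 to 42.1%) had any peak. The other protein-coding genes had 0.246%, 1.57% and 36.3%. Thus the share with any peak was above that of other genes in replicate 1 and below it in replicate 2, and the replicate 2 interval holds the value of other genes. The 4 genes within rank 1000 of replicate 2 were rpl-11.2, rps-18, rpl-33 and rps-29.

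Recurrence was counted by gene, as a summit in the window within the same cutoff in both replicate lists. The 2 peaks need not be the same, and such a count cannot exceed that of either list. Within rank 1000 of both replicate lists there were 2 ribosomal protein genes, rpl-11.2 and rps-18, which is 2.47% (interval 0.3 to 8.64%), against 0.352% of the other protein-coding genes. Within rank 5000 of both there were 5, with rpl-20, rps-19 and rps-26 added, against 1.44%. For rpl-20 the summit was 229 bp upstream in replicate 1 and 5 bp upstream in replicate 2. At any rank, 20 genes (24.7%) had a peak in both replicates, 29 (35.8%) in replicate 1 only and 5 (6.17%) in replicate 2 only. For the other protein-coding genes these shares were 18.5%, 19.9% and 17.8%. The peaks of both replicates were ranked by height alone, and what sets the replicates apart was not tested.

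**Figure D3:**
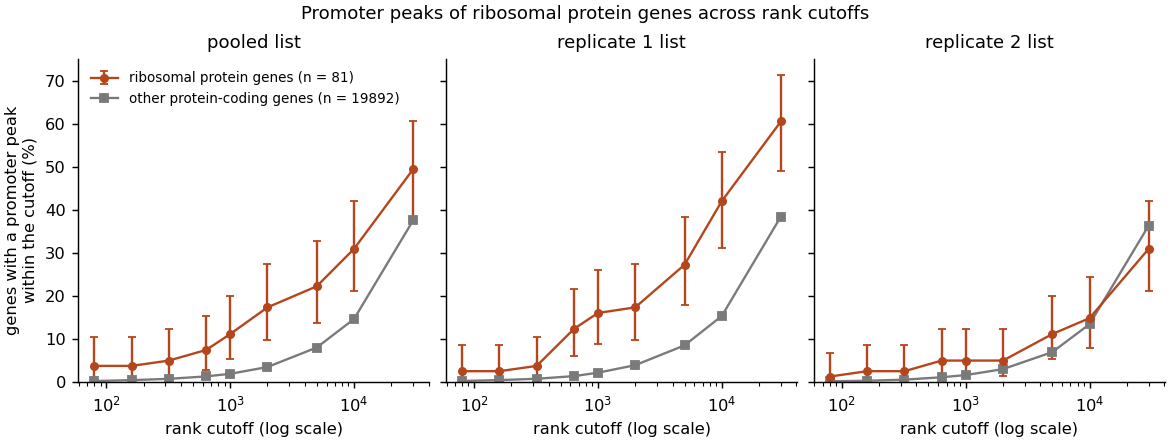
Percent of genes with a promoter peak within each rank cutoff (horizontal axis, log scale) for the 81 ribosomal protein genes (orange circles, bars are exact 95% intervals over genes) and the 19892 other protein-coding genes (grey squares), by list. The orange line lies above the grey one at every cutoff in the pooled list and in replicate 1, and crosses below it at the widest cutoff of replicate 2.

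By subunit, 6 of 47 large subunit genes (12.8%) and 3 of 31 small subunit genes (9.68%) were within pooled rank 1000, and their intervals, 4.83 to 25.7% and 2.04 to 25.8%, overlapped almost whole. The stalk genes, which encode the acidic proteins that recruit translation factors and their anchor, had none of 3 there, and rla-1 alone had a pooled peak, of rank 5128. In replicate 1, 33 large subunit genes (70.2%, interval 55.1 to 82.7%) and 15 small subunit genes (48.4%, interval 30.2 to 66.9%) had any peak. These intervals overlapped, and the share of the other protein-coding genes was 38.4%. In replicate 2 the counts were 15 (31.9%) and 10 (32.3%), against 36.3% of the other protein-coding genes.

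Other genes of protein synthesis were set beside them. The share over all other protein-coding genes to read them against is 1.86% within pooled rank 1000. Of 70 genes for mitochondrial ribosomal proteins none was within it, and the best was rank 1104. Of 40 translation factor genes 3 (7.5%) were, of 32 aminoacyl-tRNA synthetase genes 1 (3.12%), and of 28 genes of RNA polymerase I and ribosome assembly none. Each of these intervals holds the share of all other protein-coding genes. The intervals of the translation factor, synthetase and assembly lists overlapped that of the cytosolic ribosomal protein genes. The interval of the mitochondrial list reached 5.13%, just under the 5.21% where that of the cytosolic genes began. Such intervals take genes as independent, though some share a peak, and the lists were chosen with earlier results known. That gap is therefore no test of a difference. In each replicate alone the cytosolic and mitochondrial intervals overlapped, from 8.83% upward for the cytosolic genes and up to 9.94% for the mitochondrial ones in replicate 1. In replicate 2 the shares were 4.94% for the cytosolic genes and 1.43% for the mitochondrial ones. With a pooled peak at any rank the shares were 49.4% and 30%, beside 37.5% of all other protein-coding genes, and the intervals overlapped. The highest translation factor gene was iff-2, for a homologue of eIF5A, with pooled rank 62 and a height of 46.4 at 61 bp upstream of its TSS.

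**Figure D4:**
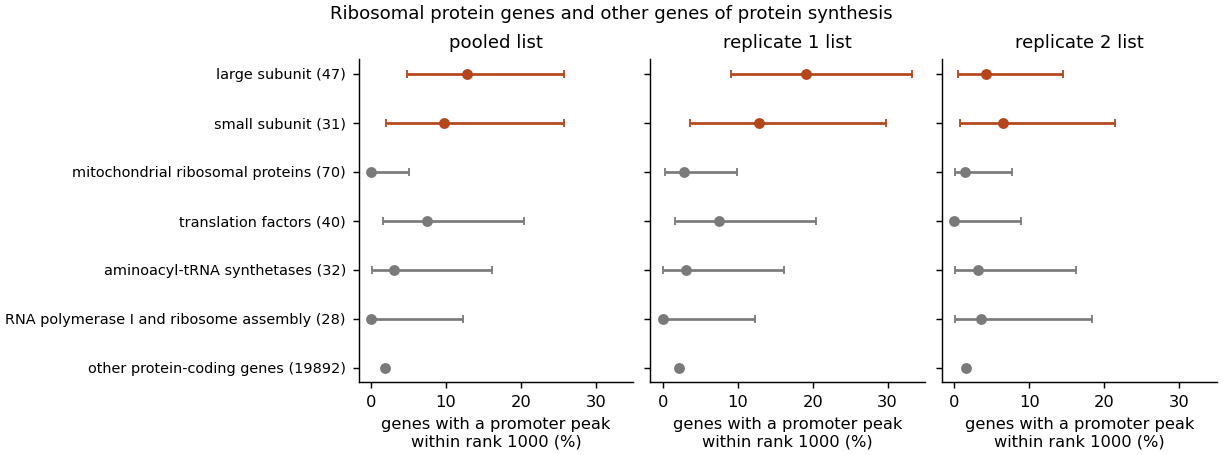
Percent of genes with a promoter peak within rank 1000 (horizontal axis) for large and small subunit genes (orange), for other lists of protein synthesis genes and for all other protein-coding genes (grey), with the number of genes in brackets and exact 95% intervals over genes, by list. Large subunit genes stand highest in the pooled list (12.8%) and in replicate 1 (19.1%); in replicate 2 all intervals overlap.

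Most ribosomal summits lay upstream. Where a gene has several starts, distances are to the nearest one whose window holds the summit, and by this measure all 40 pooled summits were upstream, between 15 and 992 bp away. Of the 7452 other genes with a peak 1374 (18.4%) had theirs downstream. Measured from the most upstream start, 2 of the 40 (5%) were downstream, against 29.2% of the other genes. These were rpl-12, 76 bp past that start in its own 5′ UTR, and rps-6, 238 bp past it in an intron of rps-6. By the nearest start, 1 of 49 summits (2.04%) was downstream in replicate 1, against 18.1%, and 3 of 25 (12%) in replicate 2, against 18.5%. The median was 348 bp upstream, close to the 334 bp of other genes, but the spread was narrower, with quartiles at 558 and 241 bp against 664 and 62 bp. From 500 to 200 bp upstream lay 22 summits (55%), against 24.9%, and within 200 bp of the TSS only 6 (15%), against 38.2%. Replicate 1 was alike, with 27 of 49 summits (55.1%) from 500 to 200 bp upstream and 8 (16.3%) within 200 bp. Replicate 2 was not, with 6 of 25 (24%) and 13 (52%), near or above the 25% and 36.7% of other genes. Many C. elegans TSS annotations mark the site of trans-splicing, so none of these distances is to a measured site of initiation.

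**Figure D5:**
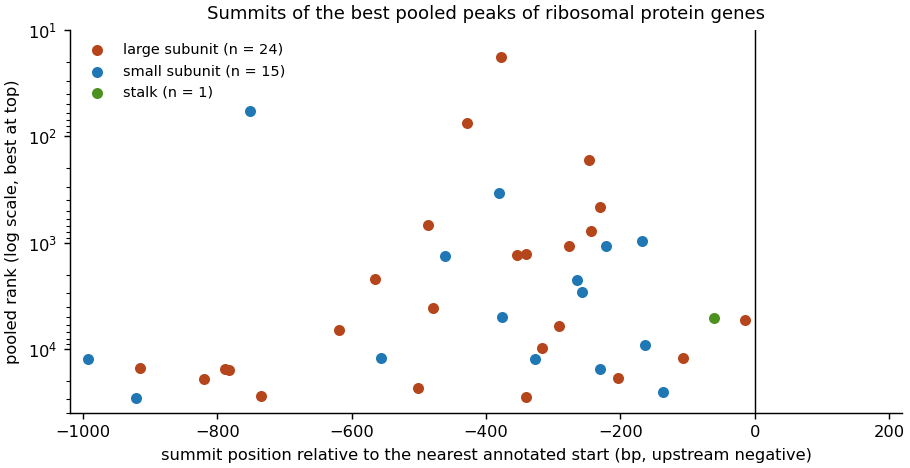
Position of the best pooled summit relative to the nearest annotated start (horizontal axis, bp) and its rank (vertical axis, log scale, best at the top) for 24 large subunit, 15 small subunit and 1 stalk gene. All points lie left of that start, though rpl-12 and rps-6 lie inside their own genes, past an earlier start, and 8 of the 9 best lie within 500 bp of it, rps-18 at 751 bp being the exception.

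The setting of these summits was crowded. Of the 40, 25 (62.5%) also lay in the window of another protein-coding gene, against 19.4% of the other genes' summits, and for 20 (50%) another gene's TSS was nearer, against 17.6%. The summit was in an exon of a non-coding RNA gene for 6 (15%, against 2.71%), in intergenic DNA for 24 (60%, against 46.9%) and in a coding exon for 5 (12.5%, against 23.4%). A snoRNA gene had 5 of the summits (12.5%) in its window, against 0.859%. The ribosomal protein genes did not have larger windows, 1259 bp on average against 1460 bp. Nor did they more often follow a gene closely. No protein-coding gene on the same strand reached within 1000 bp upstream of 55 of the 81 (67.9%), against 68.5% of the others. With 13 hosts of snoRNA genes (16%), the set held more of them than other genes (0.9%). Of these 13, rps-12 alone was within rank 1000, and of the 68 that hold none 8 (11.8%) were. Among the other protein-coding genes 18 of 179 hosts (10.1%) were within rank 1000 and 1.79% of those that hold none. Genes within the set also shared peaks, so 38 distinct peaks served the 40 genes.

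The motifs counted around summits were GAGAGA and the pair TGCCA with TGCCG, which fit the core of the PEB-1 site recalled from published work, and a window reached 100 bp to each side of a summit, both strands read. GAGAGA was in 2 of the 9 ribosomal windows within rank 1000 (22.2%), those of rpl-11.2 and rps-18, against 139 of the 317 other windows (43.8%). TGCCA was in 5 (55.6%, against 42.6%) and TGCCG in 4 (44.4%, against 34.4%). With 9 windows, differences of this size rest on 1 or 2 genes. Over the 38 ribosomal summit windows of any pooled rank, GAGAGA was in 15.8%, TGCCA in 31.6% and TGCCG in 31.6%. The 6758 other windows of any pooled rank had 15.9%, 30.3% and 19.2%. In the stretch from 250 bp before to 50 bp after the start, GAGAGA was in 17 of 81 ribosomal protein genes (21%, against 21.8%), TGCCA in 19 (23.5%, against 35.4%) and TGCCG in 22 (27.2%, against 20.9%).

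The summit windows of rpl-11.2 and rpl-22 share a stretch of 24 bases with 22 identical, seen after the peaks had been examined. Its part AGTGTNACCGTA was taken because it was the most frequent 12-letter part in ribosomal protein windows, so that its frequency there is no result. It was found in the windows of 17 of 81 ribosomal protein genes (21%) and of 43 other protein-coding genes (0.216%), 9 of which share a site with a ribosomal protein gene. The lines below, 24 bases from the RefSeq genome of WBcel235 with the 12-letter part in capitals, are shown to compare sites under a strong peak with sites under none. Sites of rpl-11.2 (X:2242954-2242977, minus strand), rps-18 (IV:14825016-14825039, plus strand) and rpl-22 (II:5055382-5055405, plus strand) lie under pooled peaks. Sites of rpl-6 (III:7208072-7208095, plus strand), rpl-34 (IV:12268563-12268586, plus strand) and rps-23 (IV:12391295-12391318, plus strand) lie under no peak in any list.
rpl-11.2: gaaacgAGTGTTACCGTAgtcatt
rps-18: aaaacgAGTGTTACCGTAccttcg
rpl-22: gaaacgAGTGTGACCGTAgttatt
rpl-6: aaaacgAGTGTCACCGTAgtcaga
rpl-34: taaacgAGTGTTACCGTAgtcttc
rps-23: gaaacgAGTGTTACCGTAcctcga
The 12 letters, apart from the free one, are alike by construction, so sites with and without a peak share them.

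Of the 16 distinct sites in ribosomal protein windows, 4 (25%) lay under a pooled peak. All 4 peaks were within rank 1000, those of rpl-11.2, rps-18, rpl-1 and rpl-22. The sites of rpl-11.2 and rpl-22 are among them by construction, so this share is no result. Of the 36 sites elsewhere, 10 (27.8%) lay under a pooled peak, 2 of them within rank 1000. The summed length of the pooled peaks equals 10.7% of the 6 nuclear chromosomes. That figure is genome-wide and not for promoter windows, so the shares of sites are not to be read against it. Among ribosomal protein genes with the letters 4 of 17 (23.5%) were within rank 1000, and among those without 5 of 64 (7.81%). Since the letters come from the summit windows of rpl-11.2 and rpl-22, 2 of these 4 are there by construction, and the comparison is no result. With any pooled peak the counts were 4 of 17 (23.5%) with the letters, the same 4 genes, and 36 of 64 (56.2%) without. Of the other protein-coding genes 37.5% had any pooled peak. This comparison is no result either, because the letters were picked from the same windows. In the replicate lists the shares with any peak lay closer, 52.9% with the letters and 62.5% without in replicate 1 (other genes 38.4%). In replicate 2 they were 29.4% with and 31.2% without (other genes 36.3%). Sites lay from 170 to 651 bp upstream, and 14 of 17 gene and site pairs were in the sense orientation. Of the 16 sites in ribosomal protein windows, 6 lay under a replicate 1 peak and 3 under a replicate 2 peak. Of the 36 elsewhere these counts were 11 and 4. The letters are therefore present at many ribosomal protein genes without a pooled peak. At rpl-35, rps-26, rpl-20, rpl-23 and rps-12 there is a pooled peak without them.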

How the data were processed

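ChIP-seq of eGFP-tagged PEB-1 in L2 larvae gave peak lists on ce11 (WBcel235) for replicate 1, replicate 2 and both pooled, each with a control file, per the file listing deposited by the authors. The aligner and peak caller were not given in the sources used here, nor was the threshold. Peak height is the signal as deposited by the authors; the last column but 1 of the pooled list holds deposited values below 0, and was therefore handled as a score that only broke ties. Lists on ce10 were not used. No read counts are given, so depth is unknown. Pooled peaks are 356 bp wide and replicate peaks mostly 364 bp.

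Best peaks were assigned with Python 3.11.15 and numpy 2.4.6 (summit in the window from 1000 bp upstream to 200 bp downstream of any TSS, Ensembl release 115), a step tested on simulated data; intervals are from scipy 1.17.1. All 81 genes matched RefSeq, which names 20 of them otherwise, rps-30 and rpl-24.2 with another stem (fau-1, rsl-24D1). By plan, named genes were those within pooled rank 1000 or within rank 160 of a replicate list, with paralogues. Other ribosomal protein genes whose ranks or positions are given, rpl-33 and rps-29 among them, were named outside this plan, after their values were seen. The members and lists were chosen with earlier results of these data known. Alternatives were other windows, starts, overlaps, cutoffs, nearest-TSS assignment, genes apart from an upstream gene, autosomes, each replicate alone and, added after seeing the data, the set without rpl-11.2.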

Additional observations from a re-analysis of the deposited data

How the results depend on the processing

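Of 46 alternative values for the 3 shares and the median rank of the ribosomal protein genes, 39 stayed within the interval of the value reported. The other 7 moved past it. These intervals are wide, 0.77 to 10.4% for the share within rank 160 and rank 1351 to 12321 for the median. The deposited thresholded list holds the same peaks as the first 160 pooled ranks, so its value could not differ. The count of 39 is therefore no measure of robustness. The order against the other protein-coding genes turned only where given here. Within rank 1000 the share (9 of 81) was 4.94% in replicate 2 alone (other genes 1.57%) and 16% in replicate 1 alone (other genes 2.12%). Widening the cutoff gave 22.2% at rank 5000 (other genes 7.97%) and 30.9% at rank 10000 (other genes 14.6%). With any peak it was 49.4% (other genes 37.5%). In replicate 2 alone it was 30.9% (other genes 36.3%, so the order turned), and in replicate 1 alone 60.5% (other genes 38.4%). It was 37% in a window of 500 bp before and 100 bp after the TSS (other genes 22.2%). In one of 2000 and 500 bp it was 64.2% (other genes 59.6%). With the nearest TSS it was 30.9% (other genes 32.1%, so the order turned). Within rank 160 it was 2.47% in either replicate alone (other genes 0.402% in replicate 1 and 0.246% in replicate 2). The median rank was 6746 in replicate 1 alone (other genes 13114) and 10639 in replicate 2 alone (other genes 13778). On autosomes alone the share within rank 1000 was 10.1%, against 1.54%, and without rpl-11.2 it was 10%, against 1.86%. The peak of rps-18 fell to rank 17037 in the narrower window. No paired analysis was possible because there was 1 group. Neither peaks under rank 30000 nor reads could be examined, and the cause of the differences between replicates was not tested.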

Other observations

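The ribosomal protein genes with a pooled peak were spread over all 6 chromosomes, 12 of 25 genes on I, 6 of 10 on II, 10 of 18 on III, 7 of 18 on IV, 3 of 8 on V and both genes on X. Over all chromosomes the share was 49.4%, against 37.5% of the other protein-coding genes. Shares of other genes were not taken by chromosome, so these counts are a listing only. Of all ribosomal protein genes 2.47% lie on X, against 13.7% of the other protein-coding genes. Beside rpl-11.2 the X-linked gene was rpl-25.1, of the large subunit, with pooled rank 6618 and a summit in a coding exon of glit-1. Of the 20 ribosomal protein genes with a peak in both replicates, 12 (60%) ranked higher in replicate 1, against 52.2% of 3686 other genes.

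Several ribosomal protein genes were ranked far apart in the 3 lists. rpl-43, of the large subunit, was rank 910 in replicate 1 and rank 15941 in the pooled list, with no peak in replicate 2. rps-15, of the small subunit, was rank 2119 in replicate 1 and rank 12608 in the pooled list, again with no peak in replicate 2. rpl-26 and rps-21 had pooled peaks of rank 27696 and rank 29173 and none in either replicate. These genes were named after their values were seen.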
